A study of Homo sapiens with 6 samples.

Results

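The cornified envelope and keratinocyte differentiation genes examined here are 40 genes for the precursors, enzymes, adhesion proteins, protease inhibitors and transcription factors of squamous differentiation. They were chosen by name for those roles, with earlier results of these data known. In all, 19775 genes had at least 1 probe set annotated to a single gene symbol, and all 40 chosen genes had one. They were measured in Cal27 cells, an established line from a human squamous cell carcinoma of the tongue, by hybridisation to the Affymetrix U133 Plus 2.0 array. The design text of the series speaks of in vivo work, while the sample labels describe the cultured line and were followed. The LV-shIL-1β group (3 arrays) carried a lentiviral hairpin against IL-1β, and the LV-shNC group (3 arrays) carried a scrambled hairpin. Both groups were Cal27 cells transduced in the same way and, for stable knockdown, kept for 2 weeks in puromycin (2 μg/mL), and 6 μg of total RNA was labelled for each array. A single hairpin was used against IL-1β, and nothing in the labels tells separate cultures from repeat arrays of 1 culture. The p-values therefore cover no more than array-to-array spread, part or all of which may be technical, and 3 arrays a group limit the precision.

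The cornified envelope is the insoluble protein shell that replaces the plasma membrane of a keratinocyte at the end of its differentiation. Scaffold proteins such as involucrin, envoplakin and periplakin are laid down first, and transglutaminases then crosslink small proline-rich (SPRR) proteins and other precursors onto them. Stratified oral epithelium also makes these proteins, and squamous carcinomas keep the program to varying degrees.

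The values are the deposited linear array signals, compared on the log2 scale with limma, and a call is an adjusted p under 0.05 (Benjamini-Hochberg, over all probe sets tested). A probe set was tested when its signal exceeded 18.6, the median of all values, on at least 3 of the 6 arrays. Each gene is given by its probe set with the highest mean signal. The signal of IL1B, the gene targeted, was 2677, 2611 and 2494 on the LV-shNC arrays and 1569, 1569 and 1596 on the LV-shIL-1β arrays, a log2 change of -0.72 ± 0.04 (SE, limma adjusted p = 2.46e-05). Every labelled knockdown array was thus below every control array.

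Of the 40 genes, 27 passed the signal filter and 13 did not. Among the 27, KLF4, CNFN, PI3 and LCN2 were called higher in LV-shIL-1β cells (4 genes, 14.8%), and SPRR1B, SPRR2B, SPRR3, TMPRSS11D, EMP1 and CLCA2 were called lower (6 genes, 22.2%). Over all 12320 genes tested, 4.03% were called higher and 4.5% lower. The 40 genes were chosen with earlier results of these data known, so the difference in shares is no independent support. On the probe set given for each gene, all of the called changes were small, with folds from 1.12 to 1.48, and none exceeded 1.5-fold. A dimmer EMP1 probe set gave 1.84-fold, but it passed the filter only through the LV-shNC arrays. The median log2 change of the 27 genes was -0.02, beside 0.00 for all genes tested, and 11 were positive and 16 negative. Signals of the 2 groups did not overlap for 8 genes that were higher and 7 that were lower, and over all genes tested such separation was found in 15.9% and 15.7%. The count called lower fell to 3 without LV-shNC array 2 or without LV-shIL-1β array 2. Calls over all 27566 probe sets fell as well, from 1943 to 911 and 696, so the loss was not particular to these genes. In RNA from a whole culture, fewer cells of a type and less RNA per cell cannot be told apart.

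**Figure D1:**
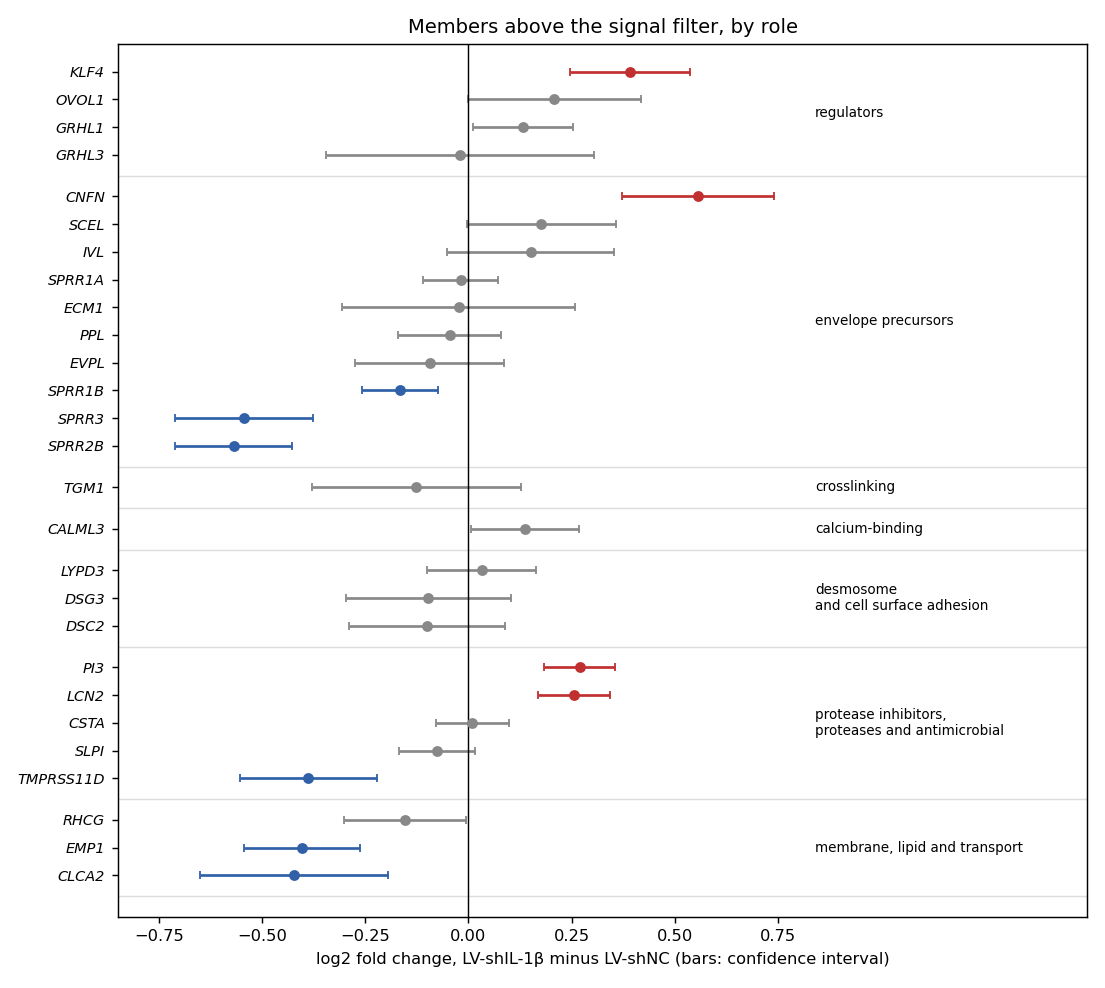
log2 fold change (LV-shIL-1β minus LV-shNC) of the 27 genes above the signal filter, grouped by role, with points for the estimate and bars for the 95% confidence interval. Red marks the 4 genes called higher, blue the 6 called lower and grey the 17 not called, and all estimates lie between -0.57 and 0.56.

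The SPRR promoters are shown because 3 of the 4 SPRR genes among the 40 were called lower while their near neighbour SPRR1A was not, and LCN2 and EMP1 are added as a gene called higher and a gene called lower. Each sequence is the 250 bases before the transcription start in RefSeq (GRCh38.p14), written 5′ to 3′ on the gene's own strand. Capitals mark TGANTCA, the core motif bound by AP-1 (Fos and Jun dimers), and TATAAA, the TATA box.
SPRR1A, chr1:152983831-152984080, plus strand: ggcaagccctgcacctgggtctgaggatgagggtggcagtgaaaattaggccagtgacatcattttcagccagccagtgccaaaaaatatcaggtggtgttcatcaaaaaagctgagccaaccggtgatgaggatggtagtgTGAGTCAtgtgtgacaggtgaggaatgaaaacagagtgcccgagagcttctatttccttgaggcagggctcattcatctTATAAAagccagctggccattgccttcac
SPRR3, chr1:153001499-153001748, plus strand: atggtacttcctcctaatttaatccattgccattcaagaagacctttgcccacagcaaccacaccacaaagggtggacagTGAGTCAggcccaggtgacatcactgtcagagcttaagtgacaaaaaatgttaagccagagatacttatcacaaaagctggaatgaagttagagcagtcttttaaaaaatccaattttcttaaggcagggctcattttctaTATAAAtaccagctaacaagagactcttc
SPRR1B, chr1:153030953-153031202, plus strand: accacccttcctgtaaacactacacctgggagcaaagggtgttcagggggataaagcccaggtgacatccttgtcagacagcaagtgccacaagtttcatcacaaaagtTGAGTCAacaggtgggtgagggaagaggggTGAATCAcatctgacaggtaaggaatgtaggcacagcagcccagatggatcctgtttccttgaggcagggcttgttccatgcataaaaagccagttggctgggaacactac
SPRR2B, chr1:153071612-153071861, minus strand: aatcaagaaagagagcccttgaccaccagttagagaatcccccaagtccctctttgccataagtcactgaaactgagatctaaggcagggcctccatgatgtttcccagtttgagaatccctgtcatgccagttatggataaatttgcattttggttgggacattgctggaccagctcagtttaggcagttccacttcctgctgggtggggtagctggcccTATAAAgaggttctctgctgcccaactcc
LCN2, chr9:128149203-128149452, plus strand: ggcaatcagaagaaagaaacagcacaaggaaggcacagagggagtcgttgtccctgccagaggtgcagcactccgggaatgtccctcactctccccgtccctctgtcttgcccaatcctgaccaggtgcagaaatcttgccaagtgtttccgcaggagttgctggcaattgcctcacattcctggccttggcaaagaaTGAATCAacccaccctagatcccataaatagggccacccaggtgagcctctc
EMP1, chr12:13196476-13196725, plus strand: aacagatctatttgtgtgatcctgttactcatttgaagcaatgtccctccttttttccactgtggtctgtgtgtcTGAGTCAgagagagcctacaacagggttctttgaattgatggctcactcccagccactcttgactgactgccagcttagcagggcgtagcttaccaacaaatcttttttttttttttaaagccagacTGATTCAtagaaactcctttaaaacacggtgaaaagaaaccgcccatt

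SPRR1A held TGANTCA 108 bases before the start and SPRR3 held it 170 bases before. In SPRR1B the motif stood at 141 and 111 bases before the start, and SPRR2B had no match in this window. SPRR1A, SPRR3 and SPRR2B each had TATAAA at 29 bases before the start, and SPRR1B did not. LCN2, called higher, had TGANTCA at 52 bases and EMP1, called lower, had it at 175 and 48 bases. Promoters were found for 31 of the 40 genes, 36 promoters in all. On either strand, TGANTCA was in 12 of the 36 (33.3%) against 6.57% of all 35116 promoters of this length, and TATAAA in 11 (30.6%) against 10.7%. GGGNGTG, the GC-rich core recognised by Krüppel-like factors, was in 13 (36.1%) against 27.1%, and AACNGGTT, the Grainyhead-like core, was in 0 against 1.49%. Matches of different motifs that overlapped were each counted. Among the 9 promoters of called genes, 5 held TGANTCA. These were LCN2, called higher, and SPRR1B, SPRR3, EMP1 and CLCA2, called lower. KLF4 and CNFN, called higher, and SPRR2B and TMPRSS11D, called lower, had no match, and no promoter was found for PI3. A link of the motif to direction was not tested. The motif matches are of letters only, and binding was not measured.

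Among the regulators of differentiation, 1 of the 4 tested genes was called. KLF4, a Krüppel-like transcription factor needed for formation of the epidermal barrier, gave signals of 499.6, 504 and 522 on the LV-shNC arrays and 741, 625 and 640.3 on the LV-shIL-1β arrays. All 3 knockdown arrays were above all controls, and array 1 stood highest. Its mean rose from 508 ± 12.0 to 669 ± 62.9 (SD, n = 3 arrays each), a log2 change of 0.39 ± 0.06 (SE, limma adjusted p = 0.00733). The other KLF4 probe set gave 112, 102 and 85.9 against 111, 118 and 109.6 (log2 change 0.18 ± 0.09, limma adjusted p = 0.282), with overlapping groups.

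OVOL1, a zinc finger repressor of progenitor proliferation, gave 84.3, 66.2 and 80.0 in LV-shNC and 87.7, 92.7 and 84.7 in LV-shIL-1β cells. The groups did not overlap, but the log2 difference of 0.21 ± 0.09 was not called (limma adjusted p = 0.222). GRHL1, a Grainyhead-like activator of desmosomal cadherin genes, was likewise separated without a call, at 243, 256 and 263 against 282, 271 and 282 (log2 difference 0.13 ± 0.05, limma adjusted p = 0.181). The second probe sets of OVOL1 and GRHL1 also had positive differences, 0.31 ± 0.17 and 0.27 ± 0.12, that were not called. GRHL3, its relative that acts on TGM1, differed by -0.02 ± 0.15 (limma adjusted p = 0.952) and lay near the filter, with signals from 14.5 to 22.0. ZNF750, a zinc finger factor of terminal differentiation, and HOPX, a homeodomain protein without DNA binding of its own, did not pass the filter. HOPX gave 11.7, 14.8 and 15.3 against 11.9, 8.28 and 11.4.

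Envelope precursors made up 13 of the 40 genes, and of the 10 tested, 3 were called lower and 1 higher. The 3 lower ones were all small proline-rich proteins, which bridge other precursors in the envelope. SPRR2B gave 213, 226 and 213 on the LV-shNC arrays against 137, 150.4 and 153 on the LV-shIL-1β arrays. All knockdown values were below all controls by a wide gap. Its mean fell from 218 ± 7.72 to 147 ± 8.66, a log2 change of -0.57 ± 0.06 (limma adjusted p = 0.00115) and 1.48-fold.

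SPRR3, a member of the family typical of oral and oesophageal epithelium, gave 214, 225 and 245 against 144, 159.6 and 166. Its groups were also fully apart. The mean fell from 228 ± 15.7 to 156 ± 11.7, a log2 change of -0.54 ± 0.07 (limma adjusted p = 0.00300). The second SPRR3 probe set gave 97.0, 103 and 125 against 74.1, 93.4 and 94.2, and its log2 difference of -0.31 ± 0.12 was not called (limma adjusted p = 0.146). The probe sets shown first for SPRR2B and SPRR3 are of the kind that Affymetrix marks as open to cross-hybridisation, and signal from close SPRR paralogs cannot be separated in them.

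SPRR1B gave 1686, 1749 and 1798 against 1551, 1499.8 and 1610.4. The groups were apart, but the gap was narrow. Its log2 change was -0.17 ± 0.04 (limma adjusted p = 0.0404), and the call was lost on leaving out LV-shNC array 2 (limma adjusted p = 0.119) or LV-shNC array 3 (0.138). Leaving out LV-shIL-1β array 1 (limma adjusted p = 0.066), array 2 (0.164) or array 3 (0.0605) had the same result. It was also lost with arrays centred on their medians (limma adjusted p = 0.064), with no filter (0.0658) and with no mean-variance trend in the fit (0.15). SPRR1A, at 2362, 2368 and 2562 against 2334, 2408 and 2454, was not called, and its interval was narrow (log2 difference -0.02, 95% confidence interval -0.11 to 0.07, limma adjusted p = 0.831). A second, cross-hybridising SPRR1A probe set gave -0.17 ± 0.06 (limma adjusted p = 0.105), with groups apart, so its probe sets differed in whether the groups overlapped.

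CNFN (cornifelin), a cysteine-rich envelope constituent, was the 1 precursor called higher. It gave 36.2, 32.3 and 36.2 in LV-shNC and 51.9, 48.2 and 53.8 in LV-shIL-1β cells, with no overlap. Its mean rose from 34.9 ± 2.23 to 51.3 ± 2.83, a log2 change of 0.56 ± 0.08 (limma adjusted p = 0.00417) and 1.47-fold. The log2 change was 0.40 after 16 was added to every signal.

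IVL (involucrin), the early scaffold of the envelope, gave low signals of 19.5, 20.7 and 18.9 against 20.8, 22.8 and 21.9. The groups did not overlap, but the log2 difference of 0.15 ± 0.09 was not called (95% confidence interval -0.05 to 0.35, limma adjusted p = 0.359). SCEL (sciellin), another precursor, gave 57.8, 58.0 and 61.9 against 61.0, 72.7 and 67.7 (log2 difference 0.18 ± 0.08, limma adjusted p = 0.232). The plakins PPL (periplakin) and EVPL (envoplakin), which anchor the envelope to keratin filaments and desmosomes, differed by -0.05 ± 0.06 and -0.09 ± 0.08 (limma adjusted p = 0.683 and 0.538). ECM1, an extracellular matrix protein of stratified epithelium, differed by -0.02 ± 0.13 (limma adjusted p = 0.937). FLG (filaggrin), which bundles keratin filaments in the upper epidermis, had mean signals of 3.05 and 3.26, CRNN (cornulin), a marker of oesophageal differentiation, 6.13 and 5.86, and SBSN (suprabasin) 16.6 and 17.0 in LV-shNC and LV-shIL-1β cells. These 3 genes did not pass the filter.

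**Figure D2:**
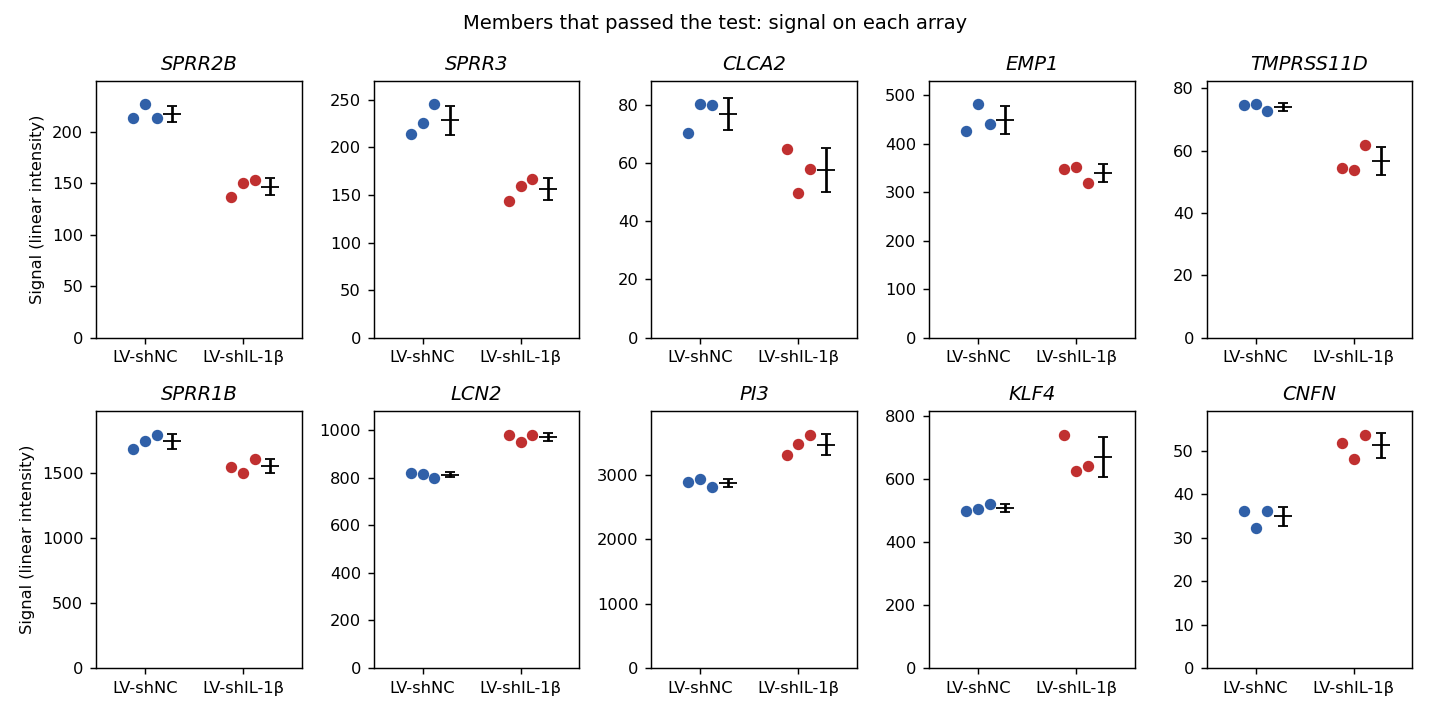
Linear signal of the 10 called genes on each of the 3 LV-shNC (blue) and 3 LV-shIL-1β (red) arrays, with a horizontal line for the mean and bars for 1 SD. Every vertical axis starts at 0 and has its own scale, and in all 10 panels the 2 groups are apart.

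The transglutaminases, which form the crosslinks of the envelope, were not called. TGM1, the membrane-bound enzyme, gave 39.3, 37.0 and 41.5 against 38.8, 30.0 and 39.9. Its groups overlapped (log2 difference -0.13, 95% confidence interval -0.38 to 0.13, limma adjusted p = 0.559). TGM3, at 5.04, 6.00 and 5.60 against 4.95, 4.29 and 4.66, lay far below the filter and was the 1 untested gene whose groups did not overlap. Of the calmodulin-like calcium-binding proteins, CALML3 gave 93.4, 95.0 and 93.9 against 102, 104 and 105 on a cross-hybridising probe set. Its groups were apart, and its log2 difference of 0.14 ± 0.06 was not called (limma adjusted p = 0.199). CALML5, the skin form, did not pass the filter (mean signals 12.7 and 13.2).

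None of the 3 tested genes for desmosomes and surface adhesion was called. The desmosomal cadherins DSG3 and DSC2, which hold neighbouring keratinocytes together, differed by -0.10 ± 0.09 and -0.10 ± 0.08 on the log2 scale (limma adjusted p = 0.569 and 0.534), and the other probe sets of both lay between -0.09 and 0.04. LYPD3, a glycolipid-anchored surface protein of suprabasal cells, differed by 0.03 ± 0.06 (limma adjusted p = 0.796). DSG1, the desmoglein of the upper layers, had mean signals of 2.82 and 2.57, and CDSN (corneodesmosin), its partner in cornified cells, 11.9 and 12.6. Neither passed the filter.

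Of the protease inhibitors, proteases and antimicrobial proteins, 2 of the 5 tested genes were called higher and 1 lower. PI3 (elafin), an elastase inhibitor that is also crosslinked into the envelope, gave 2886, 2935 and 2815 on the LV-shNC arrays and 3312, 3477 and 3627 on the LV-shIL-1β arrays. Every knockdown value exceeded every control value. The mean rose from 2879 ± 60.6 to 3472 ± 158, a log2 change of 0.27 ± 0.04 (limma adjusted p = 0.00361). Its other probe set was called too, at 1045, 1103 and 1042 against 1308, 1340.2 and 1394 (log2 change 0.34 ± 0.04, limma adjusted p = 0.00194).

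LCN2 (lipocalin 2), which binds bacterial siderophores and so withholds iron, gave 821, 817 and 799 against 980.5, 949 and 981. The spread within each group was small beside the gap between them. Its mean rose from 812 ± 11.4 to 970.1 ± 18.1, a log2 change of 0.26 ± 0.04 (limma adjusted p = 0.00498). TMPRSS11D, a serine protease of airway and oral epithelium, gave 74.6, 74.9 and 72.6 against 54.5, 53.9 and 61.7. Its groups were apart, with LV-shIL-1β array 3 nearest to the controls. Its log2 change was -0.39 ± 0.07 (limma adjusted p = 0.0150), and the call was lost without LV-shNC array 2 (limma adjusted p = 0.0544) or LV-shIL-1β array 2 (limma adjusted p = 0.0776).

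The other tested protease inhibitors were not called. SLPI (secretory leukocyte protease inhibitor), a paralog of PI3, had means of 2149 ± 85.9 and 2038 ± 66.2 (log2 difference -0.08 ± 0.04, limma adjusted p = 0.311). CSTA (cystatin A), a cysteine protease inhibitor and envelope precursor, had 4031 ± 192 and 4055 ± 115, and the 95% confidence interval of its log2 difference ran from -0.08 to 0.10 (limma adjusted p = 0.919). A2ML1, a broad protease inhibitor of the granular layer, and TMPRSS11E, a relative of TMPRSS11D with mean signals of 17.9 and 17.2, did not pass the filter.

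Both calls among the membrane, lipid and transport genes were lower. EMP1, a tetraspan membrane protein, gave 425, 481 and 441 against 348, 353 and 318, with the groups apart. Its mean fell from 449 ± 28.7 to 339.7 ± 18.6, a log2 change of -0.40 ± 0.06 (limma adjusted p = 0.00554). Of its 3 other tested probe sets, 2 were called lower and the other gave -0.25 ± 0.11 (limma adjusted p = 0.207). The brighter of the 2 gave -0.32 ± 0.07 (limma adjusted p = 0.0311). The dimmer gave 20.8, 24.1 and 21.6 against 11.9, 13.6 and 10.7 (-0.88 ± 0.12, limma adjusted p = 0.00259). It passed the filter only through the LV-shNC arrays, so its call is no added support and its size is uncertain. The size for EMP1 thus differed between probe sets while the sign did not.

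CLCA2, a regulator of chloride conductance in stratified epithelium, gave 70.5, 80.2 and 79.9 against 64.7, 49.7 and 58.1. LV-shIL-1β array 1 came closest to the lowest control, and the groups did not overlap. Its log2 change was -0.42 ± 0.10 (limma adjusted p = 0.0366). This call was lost on leaving out array 2 (limma adjusted p = 0.112) or array 3 (0.107) of LV-shNC, or array 2 (0.13) or array 3 (0.092) of LV-shIL-1β. No filter (limma adjusted p = 0.0524) and no mean-variance trend (0.0623) ended it too. Its 3 other probe sets gave log2 differences of -0.33 ± 0.12, -0.24 ± 0.09 and -0.20 ± 0.09, and none was called. RHCG, an ammonia transporter, gave 136, 135 and 150.3 against 121, 128 and 129, apart but not called (log2 difference -0.15 ± 0.07, limma adjusted p = 0.203). ABCA12, the lipid transporter of lamellar granules, had mean signals of 11.8 and 13.3, and MAL, a raft protein of apical transport, 9.38 and 9.69. Both were below the filter.

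**Figure D3:**
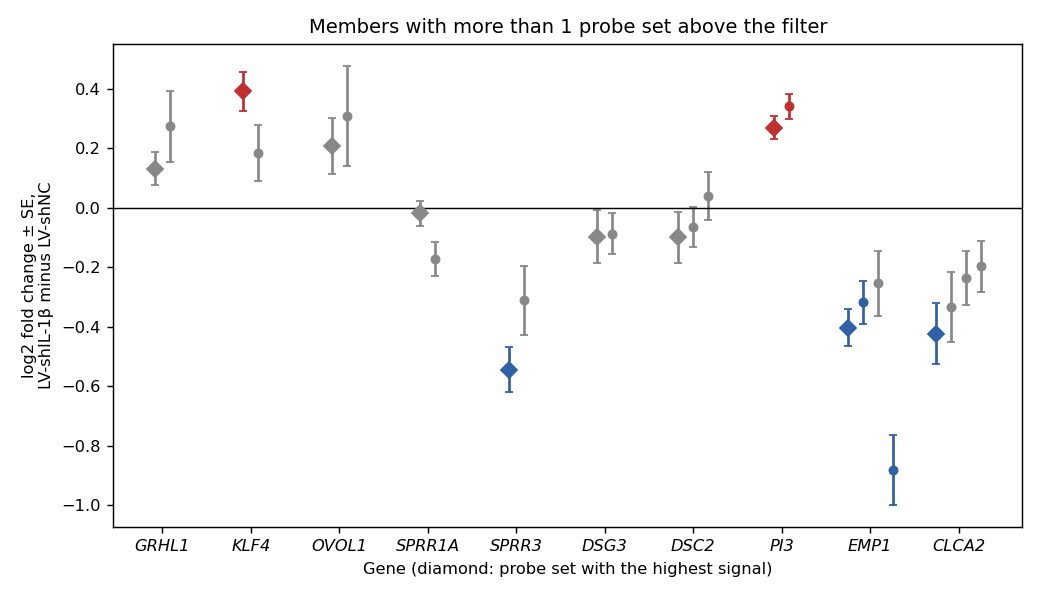
log2 fold change ± SE of every tested probe set for the 10 genes with more than 1 such probe set. Diamonds mark the probe set with the highest signal, red those called higher, blue those called lower and grey those not called. The probe sets of PI3, EMP1, KLF4, SPRR3 and CLCA2 share a sign within each gene. The 4 of EMP1 run from -0.88 to -0.25, and the one at -0.88 passed the filter only through the LV-shNC arrays.

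Over all 40 genes, 15 had more than 1 probe set, and 10 had a tested probe set besides the one with the highest signal (15 further probe sets). The 7 calls of KLF4, CNFN, PI3, LCN2, SPRR2B, SPRR3 and EMP1 held when any 1 array was left out. For the 17 tested genes that were not called, log2 differences ran from -0.15 to 0.21, and all of their 95% confidence intervals lay between -0.38 and 0.42. The signals of the 13 untested genes ran from 2.17 to 19.9, and the table gave no detection calls by which to judge them.

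In chromosomal order, SPRR1A, SPRR3, SPRR1B and SPRR2B followed each other without another measured gene between them in the epidermal differentiation complex, a cluster on chromosome 1 that holds many envelope genes. This cluster was looked at after the values were seen. The 3 called lower stood side by side, with SPRR1A before them, and SPRR2G, the next tested gene after them, was not called (log2 difference 0.06). SPRR4, tested on the other side of SPRR1A, was lower with its groups apart but was not called either (log2 difference -0.12 ± 0.07, limma adjusted p = 0.365). Thus 3 of the 6 SPRR genes tested in the cluster were called, and SPRR2C was below the filter. Of 45 measured genes in the cluster, 27 passed the filter, 3 were called higher (11.1%) and 7 lower (25.9%), beside 4.03% and 4.5% of all genes tested, and the median log2 change was -0.02. The 3 higher ones were S100A7A (log2 change 1.37 ± 0.11), S100A7 (0.78 ± 0.04) and S100A12 (0.41 ± 0.07), calcium-binding S100 proteins outside the 40 (limma adjusted p = 0.000258, 2.46e-05 and 0.0110). Besides the 3 SPRR genes, the genes called lower in the cluster were S100A14 (-0.47 ± 0.05), S100A4 (-0.43 ± 0.06), S100A10 (-0.23 ± 0.03) and S100A16 (-0.15 ± 0.04). S100 genes were thus called in both directions. IVL also lies in the cluster and was not called, and FLG and CRNN were below the filter. The cluster of desmosomal cadherins, which holds DSG1, DSG3 and DSC2, had 4 tested genes and no call, with log2 differences from -0.17 to -0.10.

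**Figure D4:**
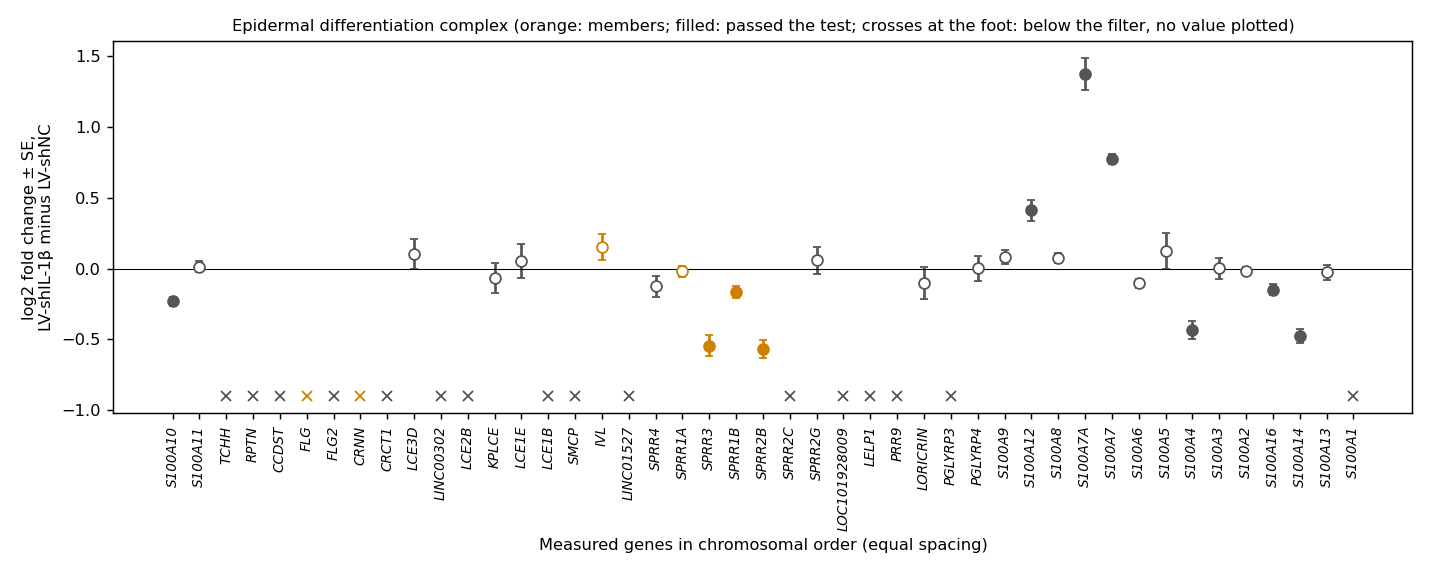
log2 fold change ± SE (vertical axis) of the 45 measured genes of the epidermal differentiation complex in chromosomal order, equally spaced and not to scale. Orange marks the genes described here and grey the others, filled points were called, and crosses at the foot are genes below the filter with no value plotted; SPRR3, SPRR1B and SPRR2B are adjacent and below 0, and S100A7A, at 1.37, is the highest point.

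Related genes outside the 40 were taken from lists chosen by role, also with earlier results of these data known. Of 66 such genes, 44 matched a probe set and 31 were tested. Of the 31, 1 was called higher (3.23%) and 2 lower (6.45%), near the 4.03% and 4.5% of all genes tested. Their median log2 change was -0.11, beside 0.00 for all genes tested. Among 13 tested envelope and barrier genes, CSTB (cystatin B), the paralog of CSTA, was the 1 called, at 3626, 3634 and 3657 against 3194, 3224 and 3287 (log2 change -0.17 ± 0.03, limma adjusted p = 0.00754). Among 8 tested desmosomal genes, PKP1 (plakophilin 1), which links cadherins to the plaque, was called lower, at 384, 377 and 415 against 293, 289 and 306 (log2 change -0.40 ± 0.06, limma adjusted p = 0.00300). All 8 desmosomal values were negative, from -0.40 to -0.04. Of 10 tested regulators, CEBPB, a leucine zipper factor active in differentiating keratinocytes, was called higher, at 1785, 1770.0 and 1725 against 2216, 2163 and 2223 (log2 change 0.32 ± 0.03, limma adjusted p = 0.000761).

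Markers of keratinocyte layers and of other cell types were measured beside these results. For comparison with their counts, 4.03% of all genes tested were called higher and 4.5% lower. Of 8 basal keratinocyte markers, 4 (KRT5, KRT14, KRT15 and ITGA3) were called lower and none higher, and ITGA6, ITGB4, LAMB3 and CDH3 were not called, with log2 differences of -0.10, 0.15, 0.09 and -0.07. The summed signal of the 8 was 15574 to 16154 on the LV-shNC arrays and 12958 to 13522 on the LV-shIL-1β arrays, most of it from KRT14 and KRT5. Without those, the summed signal of the other 6 was 4923 to 5095 and 4516 to 4785. Of 4 squamous epithelial markers, KRT16 was called lower, at 349, 361 and 385 against 226, 259 and 256, and SFN, CDH1 and EPCAM were not called. The summed signals overlapped (10995 to 11626 and 11404 to 11428). Most of that sum came from SFN and EPCAM and little from KRT16. Among 8 fibroblast markers, 5 were tested and 2 (COL1A2 and LUM) were called lower, with summed signals of 183 to 202 and 146 to 160. COL1A2 ran from 21.9 to 25.2 in LV-shNC and 15.1 to 17.1 in LV-shIL-1β cells, and LUM from 20.4 to 32.6 and 10.3 to 13.7. Both passed the filter only through the LV-shNC arrays, so these 2 calls are not taken as support for a change. The 4 leukocyte markers were all below the filter, at 2.32 to 17.0, and of 5 endothelial markers 1 was tested and none called, with summed signals of 72.2 to 74.5 and 69.0 to 71.7. No marker was at 0. The part of the basal and fibroblast markers in the changes of the 40 genes was not tested.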

How the data were processed

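Total RNA from 6 Cal27 samples was measured on 1-colour Affymetrix arrays. The authors deposited linear intensity values, and MAS5 is the processing tool that the submitters' notes name. Of its version, scaling, scan dates and detection calls, nothing is stated in the labels or methods used. Steps shared by all arrays could narrow the spread between them.

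No further normalization was applied. Of 54675 probe sets, 62 controls were left out, and 27566 passed the filter (at least 3 arrays above 18.6). Signals were log2-transformed and fitted with limma 3.58.1 (lmFit and eBayes with a trend) in R 4.3.3, with Benjamini-Hochberg adjustment over all probe sets kept. The fit was tested on simulated data. Gene names came from the platform annotation, where 41091 probe sets had 1 symbol, and 12320 genes were tested. All 40 genes were to be named, ordered by role. The members and lists were chosen with earlier results of these data known, so none is independent support. Genes without a matching probe set were not analysed here. Promoters came from RefSeq (GRCh38.p14), and motifs were searched on both strands. Alternatives were quantile normalization, median centring, other filters, a pseudocount of 16, array weights, no trend, the methods' t-test, a replicate block, other rules for probe sets and leaving out each array.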

Additional observations from a re-analysis of the deposited data

How the results depend on the processing

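Under the 17 alternatives, KLF4, CNFN, PI3, SPRR2B, SPRR3 and EMP1 lost their calls under the methods' t-test alone. LCN2 lost its call under the replicate block alone. SPRR1B, TMPRSS11D and CLCA2 lost theirs under both, besides the losses given above. This t-test is the Student's t test that the methods name for data in general. For arrays they give a fold and a detection P value, and the Benjamini-Hochberg adjustment was added here. By the methods' t-test, 6 genes were higher and 6 lower at an unadjusted p under 0.05, each by its brightest probe set. On that probe set none passed the fold the methods ask for. After Benjamini-Hochberg adjustment 1 was called higher (LCN2) and 0 lower. With the replicate number as a block, 3 were called higher and 3 lower, and 6 of the 10 calls remained. Deviations of same-numbered arrays correlated at -0.39, -0.11 and -0.21, and no array correlated best with its own number. The numbers thus gave no sign of pairing, but this check cannot exclude that same-numbered arrays were prepared together. Leaving out each array gave 4 calls higher every time, 3 to 6 lower, and a median log2 change of the 27 genes from -0.0574 to 0.00093, which was above 0 without LV-shIL-1β array 1 (0.00093). Among genes not called, the sign turned with array weights for ECM1 (0.0630) and CSTA (-0.0050). It also turned when single arrays were left out, over ranges of -0.0310 to 0.0300 for CSTA, -0.19 to 0.12 for GRHL3, -0.0387 to 0.0197 for SPRR1A, -0.12 to 0.14 for ECM1 and -0.20 to 0.0038 for TGM1. The other alternatives gave 4 calls higher and 4 to 6 lower, and with no filter all 40 genes were tested and 4 were called lower. No scaling moved the median of all genes by over 0.1. The cause of these shifts was not tested. Low signals limit what can be said of the 13 genes below the filter.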
